A study of Mus musculus with 6 samples.

Results

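The signal transducer and activator of transcription (STAT) family was described here through 6 genes, *Stat2*, *Stat3*, *Stat4*, *Stat5a*, *Stat5b* and *Stat6*, which were picked by symbol from the 24223 genes of the count files. All 6 were present in every library, and all 6 were among the 13607 genes with enough reads to be tested. RNA-Seq counts came from non-activated naive CD4+ T cells (Naive) and from the Th17 and Th1 types of T helper cell derived from them, with 2 replicates of each cell type. The question addressed by the design was which genes change their expression when Naive cells differentiate into either T helper fate.

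Every group came from C57BL/6 mice aged 1 to 2 months with no engineered allele or reporter named. Naive cells were purified from pooled lymph nodes and spleens as CD4+CD62L+ cells without CD44 and were not activated. Both helper cultures were stimulated through CD3 and CD28 and collected on day 5. Th1 cultures additionally received IL-12, IL-2 and an antibody against IL-4. Th17 cultures received TGF-β, IL-6, IL-1β and IL-23 together with antibodies against IL-4 and IFN-γ. A difference between Naive and either helper cell therefore combines activation, time in culture and the added cytokines, which cannot be told apart here.

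STAT proteins wait in the cytoplasm until a cytokine receptor is engaged, are then phosphorylated on tyrosine by Janus kinases (JAKs) bound to that receptor, and move as dimers into the nucleus to activate their targets. Each member is known for certain cytokines: Stat4 for IL-12, Stat3 for IL-6, IL-21 and IL-23, Stat5a and Stat5b for IL-2 and IL-7, Stat6 for IL-4 and IL-13, and Stat2, with Irf9 as a partner, for type I interferon. STAT dimers bind the GAS element, whereas the complex that contains Stat2 and Irf9 binds the interferon-stimulated response element (ISRE). Transcript levels do not report phosphorylation, so the values below concern the amount of each STAT message.

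The members lie on chromosomes 1, 10 and 11 of the GRCm38 genome, as annotated by GENCODE. *Stat4* occupies chr1:51987148-52107189 on the plus strand. *Stat6* (chr10:127642986-127660957) and *Stat2* (chr10:128270559-128292849) share a strand of chromosome 10 and lie 609601 bp apart. *Stat5b* (chr11:100780731-100850724, minus strand), *Stat5a* (chr11:100859351-100885169, plus strand) and *Stat3* (chr11:100885098-100939540, minus strand) are neighbours on chromosome 11. *Stat5b* and *Stat5a* are separated by 8626 bp, and the ends of *Stat5a* and *Stat3* overlap by 72 exonic bases on opposite strands.

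Promoter windows of 300 bases, from 250 bases before to 50 bases after a transcription start, were available from RefSeq on GRCm38.p6 for all 6 members, 9 windows in total. They were searched on both strands for an ISRE-like word (GAAANNGAAA, or TTTCNNTTTC when read on the other strand) and for the palindromic GAS-like words TTCNNNGAA and TTCNNNNGAA. The ISRE-like word occurred in 3.45% of 32544 windows of the same length, TTCNNNGAA in 8.33% and TTCNNNNGAA in 6.98%. Matches were found in the window of *Stat2* and in the second window of *Stat4*, and none of the 3 words occurred in the windows of *Stat3*, *Stat5a*, *Stat5b* or *Stat6*. The 250 upstream bases are shown for these 2 genes because *Stat4* was the member called in a comparison and *Stat2* the member whose gap between the Th1 replicates was like that of interferon response genes; capitals mark matches, and all 3 stretches are on the plus strand.
Stat2 window, chr10:128270248-128270497: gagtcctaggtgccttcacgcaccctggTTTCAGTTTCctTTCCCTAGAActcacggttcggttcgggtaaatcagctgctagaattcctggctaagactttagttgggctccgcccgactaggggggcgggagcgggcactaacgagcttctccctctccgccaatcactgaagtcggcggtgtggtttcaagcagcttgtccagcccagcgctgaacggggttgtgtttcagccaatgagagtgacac
Stat4 window 1, chr1:51986898-51987147: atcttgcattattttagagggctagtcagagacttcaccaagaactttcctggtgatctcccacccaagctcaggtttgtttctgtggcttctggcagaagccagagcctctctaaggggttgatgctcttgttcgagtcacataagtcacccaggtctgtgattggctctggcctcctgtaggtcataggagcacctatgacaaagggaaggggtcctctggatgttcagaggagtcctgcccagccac
Stat4 window 2, chr1:52007990-52008239: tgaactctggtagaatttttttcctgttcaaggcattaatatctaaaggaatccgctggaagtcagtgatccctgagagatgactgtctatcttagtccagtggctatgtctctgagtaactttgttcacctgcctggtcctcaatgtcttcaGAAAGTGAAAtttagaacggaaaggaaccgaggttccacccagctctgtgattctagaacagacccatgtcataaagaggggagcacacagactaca
In *Stat2*, the ISRE-like word TTTCAGTTTC began at position -222 from the start and was followed at -210 by the GAS-like word TTCCCTAGAA. In *Stat4*, the first window, at the annotated 5′ end of the gene, held no match, and the window at an internal RefSeq start held GAAAGTGAAA at -97. These matches describe letters only and were not tested for binding.

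Library depth differed mainly between replicates: replicate 1 of each cell type held 59973041 to 69080017 counted reads and replicate 2 held 17742158 to 18608805. All 7 markers of CD4 T cells that were present in the files exceeded 10 CPM in every library, where CPM is the read count scaled to the size of the library after TMM normalization. The 8 markers of naive T cells summed to 3663 and 5764 CPM in Naive, 4418 and 3884 CPM in Th17, and 4149 and 7203 CPM in Th1, so the summed levels overlapped. Single markers differed in pattern: *Klf2* was at 432 and 715 CPM in Naive, 193 and 99.9 CPM in Th17, and 199 and 837 CPM in Th1, whereas *Satb1*, at 410 and 775 CPM in Naive, reached 1389 and 1845 CPM in Th1. Markers of other cells also differed between groups. The 12 neutrophil markers summed to 375 and 221 CPM in Naive, 3124 and 2967 CPM in Th17, and 31.9 and 43.9 CPM in Th1. *S100a8* was at 1149 and 1142 CPM in Th17, with a mean of 0.559 CPM in Naive. The Naive sum was led by *Mpo*, at 251 and 159 CPM, which went the other way, with a mean of 63.4 CPM in Th17. In Th17 against Naive 11 of the 12 had a positive log2 fold change. The 10 macrophage and dendritic cell markers in the files, led by *Lyz2*, summed to 243 and 837 CPM in Th17 and to at most 38.6 CPM elsewhere. The 11 erythroid markers summed to 861 and 142 CPM in Naive and at most 2.38 CPM elsewhere. Of these 11, 6 haemoglobin genes were at 0 in every library. The 8 mast cell and basophil markers summed to 176 and 55.8 CPM in Naive, 233 and 453 CPM in Th17, and 85.7 and 70.1 CPM in Th1. *Mcpt8* was at 7.59 and 1.19 CPM in Naive, 66.0 and 119 CPM in Th17, and 12.1 and 12.3 CPM in Th1. The Naive sums were led by *Kit*, at 99.8 and 29.6 CPM, which went the other way, with a mean of 12.1 CPM in Th17. *Gata2* also had a lower mean in Th17 (16.4 CPM) than in Naive (23.4 CPM). In Th17 against Naive 6 of the 8 had a positive log2 fold change. Whether other cells contributed STAT message in Naive or Th17 was not tested, and in bulk RNA fewer cells of a type and less RNA per cell cannot be told apart.

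Among the 6 members, only *Stat4* passed the test in any comparison, and it was higher in Th1 than in Naive. A gene was called when the adjusted p of edgeR's quasi-likelihood test was under 0.01 and the log2 fold change exceeded 1 in size. In Th17 against Naive 0 of 6 members were called by edgeR, 0 passed at an unadjusted p under 0.05 and 0 were called by DESeq2, whereas 5.43% of all tested genes were called and 33.3% had an unadjusted p under 0.05. In Th1 against Naive 1 of 6 was called, upward, beside 7.45% of all genes called in either direction and 4.64% called upward, and 2 members (*Stat3* and *Stat4*) had an unadjusted p under 0.05, beside 29.9% of all genes. Between Th1 and Th17 0 of 6 were called by edgeR, beside 5.53% of all genes, although 3 members (*Stat2*, *Stat4* and *Stat5a*) had an unadjusted p under 0.05, beside 33.8% of all genes, and DESeq2 called 1, *Stat4*. A median log2 fold change of -0.32 was found over the members in Th17 against Naive, of 0.59 in Th1 against Naive and of 0.74 in Th1 against Th17, while the medians over all tested genes were -0.02, -0.02 and -0.03. Since the 3 comparisons share libraries, these medians are not independent of each other. For all 6 members both Th1 libraries lay above both Th17 libraries in TMM-scaled CPM. In this direction 31.5% of all tested genes showed that pattern. For the members the pattern depended on the scaling. With CPM of the raw total, without TMM, Th17 replicate 1 lay above Th1 replicate 2 for *Stat2*, *Stat3* and *Stat5b*. The values were 51.1 against 43.1 CPM, 328 against 318 CPM and 320 against 311 CPM.

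**Figure D1:**
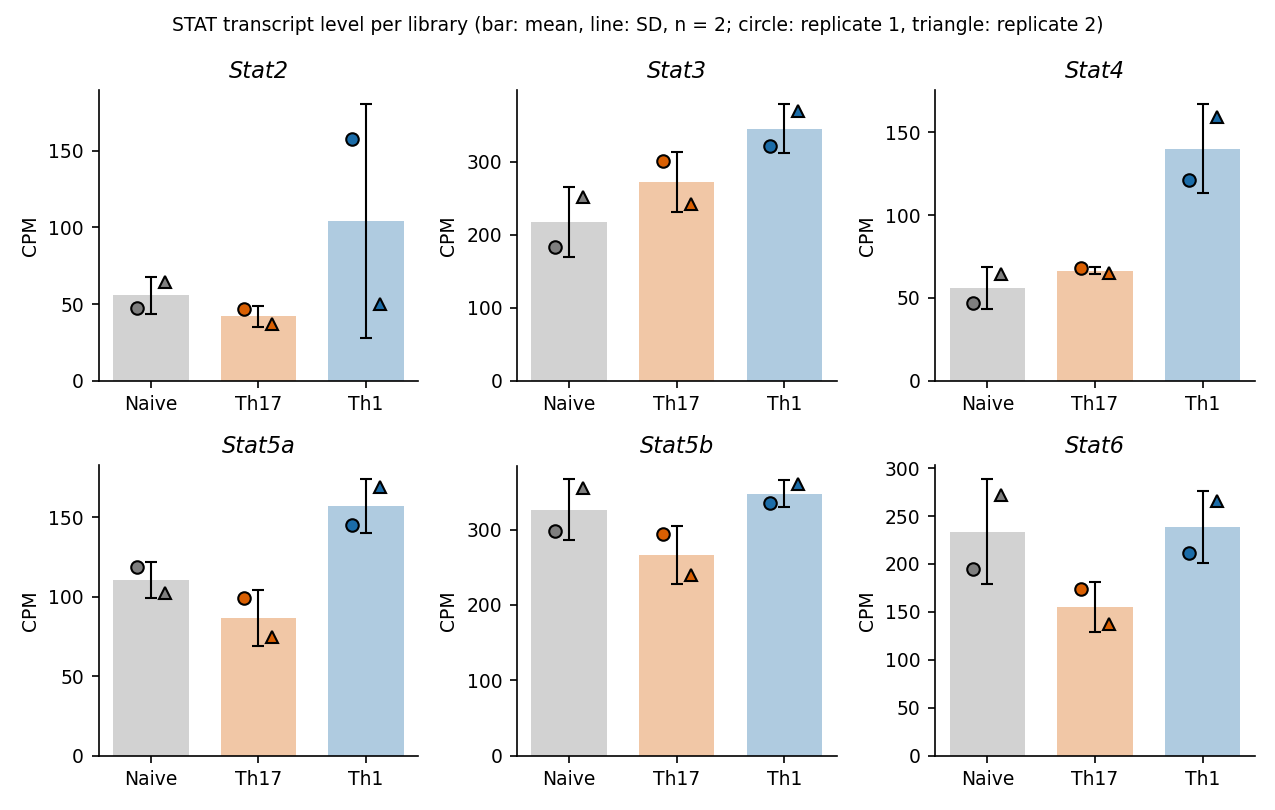
Level of each STAT transcript in CPM (y axis, from 0) in Naive, Th17 and Th1 (x axis); bars are means, lines SD (n = 2), circles replicate 1 and triangles replicate 2. For *Stat4* the Th1 libraries sit at 121 and 159 CPM, above all others, and for *Stat2* Th1 replicate 1 alone sits at 158 CPM.

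**Figure D2:**
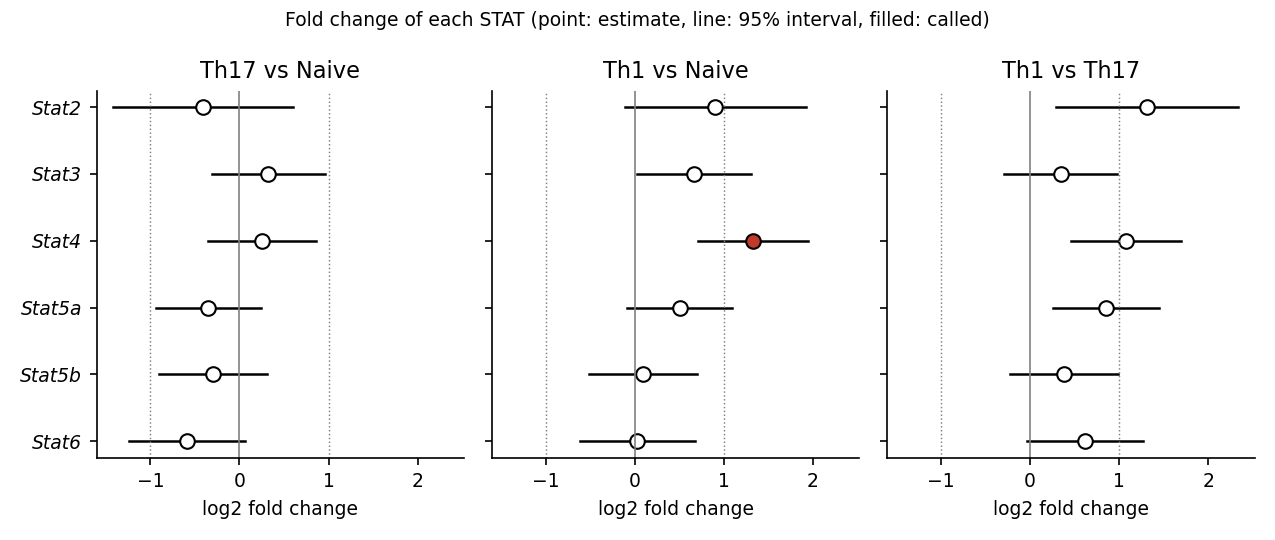
The log2 fold change of each STAT (x axis) in the 3 comparisons (panels), with points for the estimates and lines for 95% intervals; dotted lines mark a change of 1 and the filled point marks the member called. *Stat4* in Th1 against Naive, at 1.33, is the only filled point.

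*Stat4*, which relays IL-12 signals toward IFN-γ, had the clearest difference between cell types. Its level was 46.9 and 64.7 CPM in the Naive replicates, 67.8 and 64.8 CPM in Th17, and 121 and 159 CPM in Th1. The Th1 libraries were above all the others, whereas Naive and Th17 nearly met, with the higher Naive value just under the lower Th17 value. With CPM of the raw total, Naive replicate 2 (70.2 CPM) was above Th17 replicate 2 (64.6 CPM). The TMM-scaled means were 55.8 ± 12.6 (SD, n = 2) in Naive, 66.3 ± 2.12 in Th17 and 140 ± 26.9 in Th1. *Stat4* was up-regulated 2.51-fold in Th1 against Naive (log2 fold change 1.33, SE 0.28, 95% interval 0.71 to 1.95, edgeR adjusted p = 0.00998), just inside the threshold. Leaving out any 1 of the 4 Naive and Th1 libraries lost the call, with log2 fold changes of 1.11 to 1.58. DESeq2, run on all 6 libraries, also called *Stat4* in Th1 against Naive (adjusted p = 0.000291, and 0.000483 with the replicate number as a block). Against Th17, *Stat4* was 2.11-fold higher in Th1 (log2 fold change 1.08, SE 0.28). There the edgeR adjusted p of 0.0278 missed the threshold and the DESeq2 adjusted p of 0.00557 met it. With the replicate number as a block, the adjusted p of DESeq2 was 0.0102, and the threshold was missed. Between Th17 and Naive the difference was within the spread (log2 fold change 0.25, 95% interval -0.36 to 0.86). A non-coding gene, *Gm28177*, covers 1033 bases (32.8%) of the *Stat4* exons on the same strand and is not listed in the count files.

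**Figure D3:**
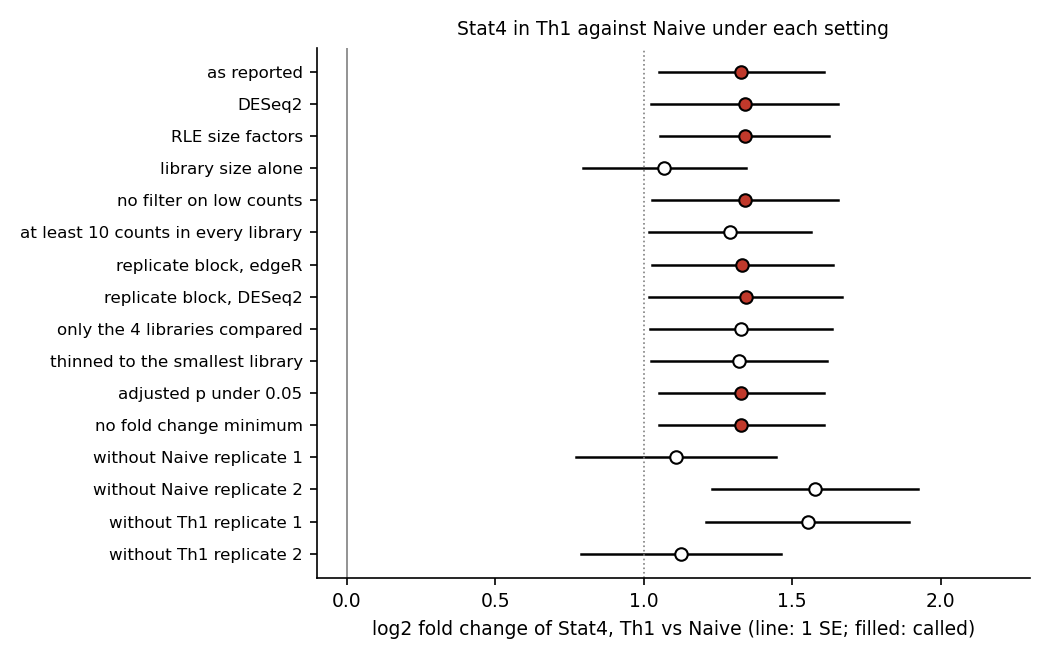
The log2 fold change of *Stat4* in Th1 against Naive (x axis, lines are 1 SE) as reported and under each alternative setting (y axis); filled points were called and the dotted line marks the fold threshold. Estimates run from 1.07 to 1.58, all above 0, and the call was lost without any 1 library, on library size alone, with at least 10 counts in every library, in 4 libraries only and after thinning.

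*Stat2*, the interferon-responsive member, differed most between the replicates of a cell type. Its level was 47.1 and 64.1 CPM in Naive, 46.9 and 36.9 CPM in Th17, and 158 and 50.0 CPM in Th1. Only Th1 replicate 1 stood high, and Th1 replicate 2 lay between the Naive libraries. With CPM of the raw total, Th1 replicate 2 (43.1 CPM) lay below both Naive libraries (49.5 and 69.6 CPM). The gap between the Th1 replicates was 1.66 on the log2 scale, larger than that of 94.1% of tested genes, whereas the other 5 members differed by 0.11 to 0.39 between those libraries and were all higher in replicate 2. In Th1 against Naive the log2 fold change of *Stat2* was 0.91 (SE 0.45, edgeR adjusted p = 0.217), and without Th1 replicate 1 it was -0.11. Relative to Th17 it was 1.31 in Th1 (SE 0.46, edgeR adjusted p = 0.0770), and without Th1 replicate 2 it was 1.92 and passed the threshold (edgeR adjusted p = 0.00837). Th17 and Naive did not differ beyond the spread (log2 fold change -0.41, 95% interval -1.42 to 0.61).

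The list of 16 genes that respond to interferon or partner Stat2 also differed between the Th1 replicates. In Th1 the median gap between replicate 1 and replicate 2 was 1.92 on the log2 scale, and 15 of 16 genes were higher in replicate 1, against median gaps of 0.33 in Naive and 0.11 in Th17. *Ifit3*, an interferon-induced antiviral gene, was measured at 14.6 and 10.8 CPM in Naive, 0.888 and 0.792 CPM in Th17, and 90.9 and 15.2 CPM in Th1. *Irf9*, the DNA-binding partner of Stat2, was steadier, at 114 and 116 CPM in Naive, 56.7 and 52.3 CPM in Th17, and 143 and 111 CPM in Th1. Over all tested genes, 1.43% were called lower in Th17 against Naive, 2.70% higher in Th1 against Th17 and 4.64% higher in Th1 against Naive. In Th17 against Naive 6 of the 16 were down-regulated, with a list median of -2.66, among them *Ifit3* (log2 fold change -3.90), *Oasl2* (-3.77) and *Rtp4* (-3.76). This count was 2 without Naive replicate 1, 0 without Th17 replicate 1 and 1 without Th17 replicate 2. In Th1 against Th17 8 of 16 were up-regulated, with a median of 3.65, and the count was 1 and 3 without Th17 replicate 1 and 2, 7 without Th1 replicate 1 and 13 without Th1 replicate 2. The list median in Th1 against Naive was 0.92 with 2 genes up-regulated, *Zbp1* (log2 fold change 1.56, a call lost without Naive replicate 1 or Th1 replicate 1) among them, and -0.39 with 1 gene without Th1 replicate 1. These 2 calls became 1 without Naive replicate 1 and 7 without Th1 replicate 2. One list member, *Ifi44*, was at or under 3 counts in both Th17 libraries, and setting its change at the bound left the medians at -2.66 and 3.65.

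**Figure D4:**
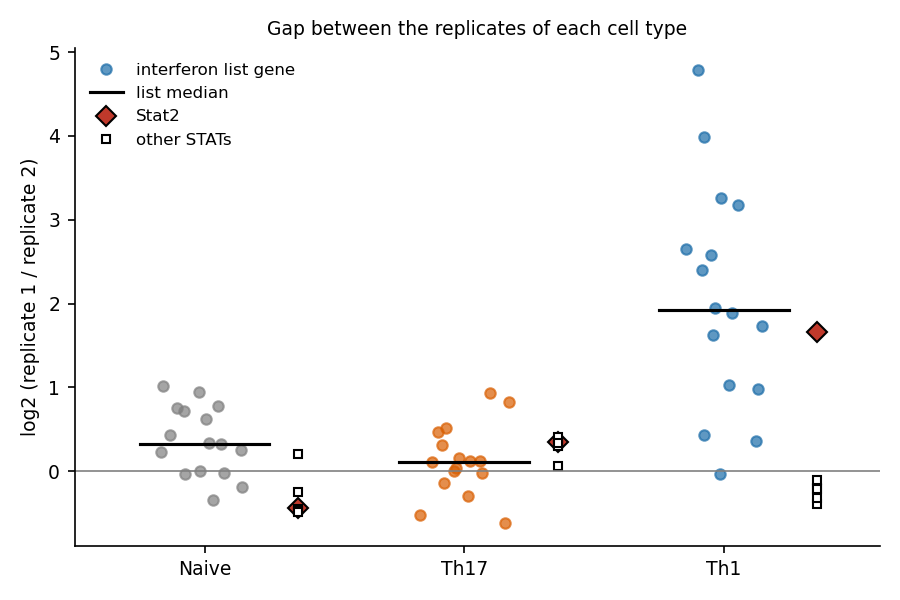
Gap between replicate 1 and replicate 2 (y axis, log2 ratio) in each cell type (x axis) for the 16 interferon list genes (circles, median as a black line), *Stat2* (diamond) and the other STATs (squares). In Th1 *Stat2* at 1.66 sits near the list median of 1.92, and the other members sit below 0.

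*Stat3*, which relays IL-6 and IL-23 in Th17 differentiation, was lowest in Naive and highest in Th1. Its level was 183 and 251 CPM in Naive, 301 and 243 CPM in Th17, and 322 and 369 CPM in Th1. The Th1 libraries were above all the others, and the Th17 and Naive libraries overlapped. With CPM of the raw total, Th17 replicate 1 (328 CPM) was above both Th1 libraries (301 and 318 CPM). The log2 fold change was 0.67 in Th1 against Naive (SE 0.29, 95% interval 0.03 to 1.31, edgeR adjusted p = 0.148). It was 0.32 in Th17 against Naive (SE 0.29, 95% interval -0.31 to 0.96) and 0.35 in Th1 against Th17 (SE 0.29, 95% interval -0.29 to 0.98), so that neither neighbouring pair in the order Naive, Th17, Th1 differed beyond the spread.

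*Stat5a* and *Stat5b*, the adjacent and closely related transducers of IL-2, had different ranges. *Stat5a* was measured at 118 and 103 CPM in Naive, 99.0 and 74.4 CPM in Th17, and 145 and 169 CPM in Th1. For *Stat5a* the 3 cell types did not overlap, with Th17 lowest and Th1 highest. Its log2 fold change was 0.86 in Th1 against Th17 (SE 0.27, 95% interval 0.26 to 1.45, edgeR adjusted p = 0.0534), 0.51 in Th1 against Naive (SE 0.26, adjusted p = 0.237) and -0.35 in Th17 against Naive (SE 0.26, adjusted p = 0.379). *Stat5b* was measured at 298 and 355 CPM in Naive, 294 and 239 CPM in Th17, and 335 and 360 CPM in Th1. Its Th1 libraries overlapped the Naive libraries, and its Th17 libraries lay below both groups. With CPM of the raw total, Th17 replicate 1 of *Stat5b* (320 CPM) was above Naive replicate 1 (313 CPM) and both Th1 libraries (313 and 311 CPM). *Stat5b* was the steadiest member: its SD over the 6 libraries was 0.22 on the log2 CPM scale, smaller than that of all but 7.74% of tested genes, against 0.74 for *Stat2* and 0.66 for *Stat4*. The largest change of *Stat5b* was a log2 fold change of 0.38 in Th1 against Th17 (95% interval -0.22 to 0.99). The coding sequences of the pair were 90.8% identical over 2291 aligned bases, and 175 stretches of 150 bases were shared exactly, 4.41% of those in *Stat5a* and 3.25% of those in *Stat5b*. Reads within such stretches fit either gene, so a small part of each level is uncertain.

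*Stat6*, the transducer of IL-4, was lowest in Th17. Its level was 195 and 272 CPM in Naive, 173 and 137 CPM in Th17, and 212 and 265 CPM in Th1. Both Th17 libraries lay below all the others, and Th1 and Naive overlapped. The log2 fold change was -0.59 in Th17 against Naive (SE 0.29, 95% interval -1.24 to 0.06, edgeR adjusted p = 0.187) and 0.62 in Th1 against Th17 (SE 0.29, 95% interval -0.03 to 1.27, adjusted p = 0.165). Th1 and Naive were close, at 238 ± 37.7 and 233 ± 54.8 CPM (SD, n = 2), with a 95% interval of the log2 difference from -0.62 to 0.68. The last 40 exonic bases shared with *Nab2* on the opposite strand are 1.06% of the *Stat6* exons.

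Divided by the length of their protein-coding exons, the levels of the members could be set beside each other within a library. *Stat6* and *Stat5b* were the most abundant in Naive, at 61.8 ± 14.5 and 58.9 ± 7.27 CPM per kb (SD, n = 2), and *Stat2* the least, at 12.7 ± 2.73 CPM per kb. This order depended on the length used: per kb of coding sequence, *Stat5b* led in Naive at 138 ± 17.1 CPM per kb, followed by *Stat3* at 94.1 ± 20.9 and *Stat6* at 93.0 ± 21.8, and *Stat2* was again the least abundant at 20.1 ± 4.34. The shares that follow are per kb of exon; per kb of coding sequence, the *Stat3*, *Stat4* and *Stat6* shares kept the order between cell types given for each. *Stat3* made up 15.5% and 17.0% of the summed CPM per kb of the 6 members in Naive. It made up 23.6% and 23.5% in the Th17 libraries, against 18.5% and 19.8% in Th1, so its share was highest in Th17. The share of *Stat6* was 27.1% and 30.4% in Naive, above the 22.5% and 21.8% of Th17 and the 20.1% and 23.5% of Th1. The share of *Stat4* was lowest in Naive at 7.83% and 8.66%, reached 10.5% and 12.4% in Th17, and was highest in Th1 at 13.8% and 16.9%. These shares depend on all members at once, and *Stat2* alone took 12.9% in Th1 replicate 1 against 3.80% in replicate 2.

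**Figure D5:**
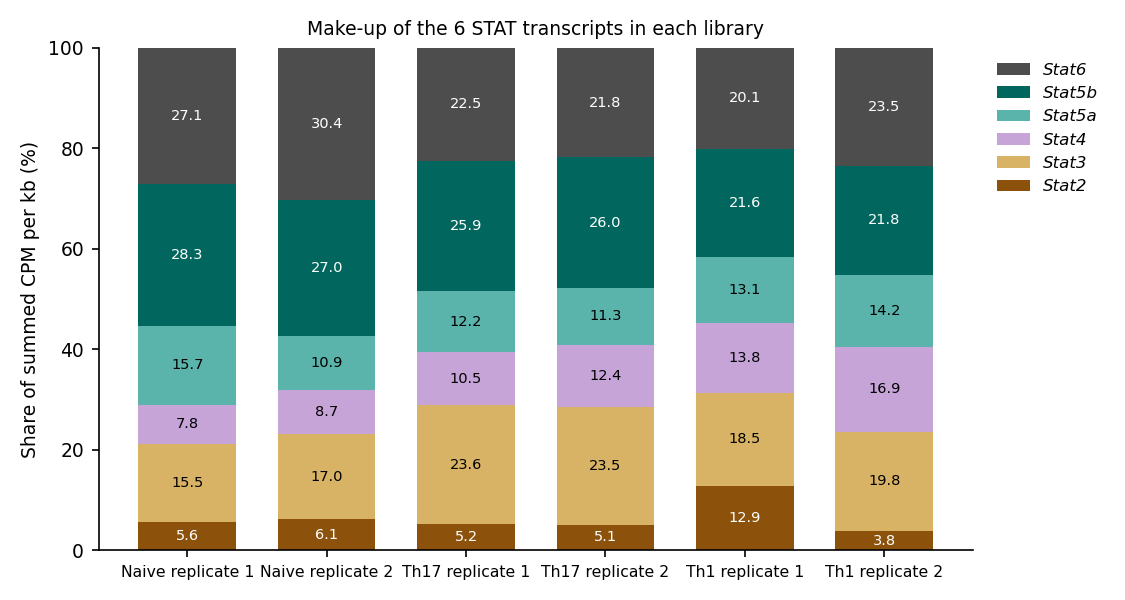
Share of each STAT in the summed CPM per kb of the 6 members (y axis, percent) in each library (x axis). The *Stat3* segment is widest in Th17 (23.6% and 23.5%) and the *Stat4* segment widest in Th1 (13.8% and 16.9%).

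Ratios of counts within a library need no scaling between libraries. The count ratio of *Stat3* to *Stat6* was 0.941 and 0.924 in Naive, against 1.74 and 1.77 in Th17 and, between them, 1.52 and 1.39 in Th1, with close replicates and no overlap between cell types. The count ratio of *Stat4* to *Stat6* rose in the order Naive (0.241 and 0.238), Th17 (0.391 and 0.473) and Th1 (0.572 and 0.600). The count ratio of *Stat5a* to *Stat5b* was 0.397 and 0.289 in Naive and 0.337 and 0.311 in Th17, with Th1 at 0.434 and 0.469, higher in Th1 than in either of the others. Over the 15 pairs of members, the ratio did not overlap between Th17 and Naive for 10 pairs, between Th1 and Naive for 8 and between Th1 and Th17 for 8. Among all pairs of tested genes, the corresponding shares were 66.2%, 60.0% and 66.6%, so the counts among the members were near or below those of genes at large.

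Profiles over the 6 libraries were compared by the root mean square difference of centred log2 CPM. Within the family, *Stat5b* and *Stat6* were the closest pair (0.154), and every pair with *Stat2* was 0.582 or more apart. Over all tested genes, *Gpr146* (0.030), *Rnf125* (0.063) and *Rnls* (0.101) had the profiles nearest to *Stat4*. *Plekhm3*, *Maneal* and *Kif3b* were nearest to *Stat3* (0.051 to 0.082), and *Phf20*, *Gak* and *Pofut1* to *Stat5b* (0.040 to 0.045). The nearest to *Stat5a* were *Acy1*, *Acd* and *Wdr25* (0.079 to 0.086), and to *Stat6* *Arhgap17*, *Kremen1* and *Limk2* (0.053 to 0.059). *Stat2* had the most distant neighbours, *Hist1h4d*, *Etv4* and *Ctc1* (0.137 to 0.161). With 6 libraries, likeness of this kind is a description only.

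Upstream of the STATs, the 4 JAKs were not called by edgeR in any comparison. At an unadjusted p under 0.05, 2 passed in Th17 against Naive, beside 33.3% of all genes, and 1 in Th1 against Naive, beside 29.9%. In Th1 against Th17 1 passed, beside 33.8%. DESeq2 called 1 of the JAKs, *Tyk2*, in Th17 against Naive, a call lost in DESeq2 with the replicate block (adjusted p = 0.0143). *Tyk2* was also called there by edgeR without a filter on low counts (adjusted p = 0.00228) and at an adjusted p under 0.05. *Tyk2*, the kinase of the IL-12 and interferon receptors, was measured at 103 and 147 CPM in Naive, 68.8 and 43.2 CPM in Th17, and 102 and 104 CPM in Th1, and its log2 fold change in Th17 against Naive was -1.15 (SE 0.31, edgeR adjusted p = 0.0325). *Jak1* was at 651 and 967 CPM in Naive, 488 and 431 CPM in Th17, and 592 and 876 CPM in Th1. *Jak3*, which pairs with the common γ chain, was at 188 and 310 CPM in Naive, 502 and 281 CPM in Th17, and 522 and 462 CPM in Th1. *Jak2* ranged from 131 to 204 CPM over all libraries.

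Receptor chains upstream of the members included large rises. Over all tested genes, 4.01% were called higher and 1.43% lower in Th17 against Naive, 4.64% and 2.81% in Th1 against Naive, and 2.70% and 2.83% in Th1 against Th17. Of 17 chains, 6 were up-regulated in Th1 against Naive (3 without Naive replicate 1). *Il12rb2*, the inducible chain of the IL-12 receptor upstream of Stat4, rose from 3.82 and 3.76 CPM in Naive to 338 and 281 CPM in Th1 (log2 fold change 6.35, SE 0.37), with 11.1 and 6.68 CPM in Th17. *Il2ra* and *Il2rb*, chains of the IL-2 receptor upstream of Stat5a and Stat5b, rose by 4.03 and 3.03 on the log2 scale in Th1. The 1 chain down-regulated in Th1 against Naive was *Il6ra*, the ligand-binding chain of the IL-6 receptor upstream of Stat3. It was at 209.7 and 319 CPM in Naive, 149 and 97.0 CPM in Th17, and 51.1 and 79.3 CPM in Th1, and fell by 2.02 on the log2 scale (SE 0.35), a call lost without Naive replicate 2 or Th1 replicate 1. In Th17 against Naive 2 chains were up-regulated, *Il23r* and *Il2ra* (log2 fold change 2.80, SE 0.38). *Il23r*, upstream of Stat3, was measured at 33.1 and 30.4 CPM in Th17, against 0.572 and 0.149 CPM in the Naive libraries, and Th1 had 2.01 and 0.253 CPM. *Il10ra* fell by 1.48 on the log2 scale in Th17 against Naive, a call lost without any 1 of those 4 libraries, and was 2.99 higher in Th1 than in Th17. Relative to Th17, 4 chains were up-regulated in Th1 and 2 down-regulated, the latter count being 0 without Th17 replicate 1 and 1 without any other of the 4 libraries.

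Among 18 inhibitors of the pathway, *Socs1*, *Socs2* and *Socs3*, of the suppressor of cytokine signalling family, were up-regulated in at least 1 comparison. Over all tested genes, 4.01% were called higher and 1.43% lower in Th17 against Naive. In Th1, 4.64% were called higher against Naive and 2.70% against Th17. The list median in Th17 against Naive was -0.39, and 6 of the 18 had a positive log2 fold change. *Socs3*, itself a Stat3 target, was at 81.5 and 131 CPM in Naive, 692 and 510 CPM in Th17, and 349 and 495 CPM in Th1, and rose by 2.50 (SE 0.36) in Th17 and 1.99 (SE 0.35) in Th1 on the log2 scale. *Socs2* rose by 2.22 in Th17 and by 3.36 in Th1, and *Socs1* by 2.75 in Th1 against Naive and by 1.84 in Th1 against Th17. In Th1 against Naive these 3 were the inhibitors up-regulated, and *Socs3* lost its call without Naive replicate 1 or Th1 replicate 2. The 2 inhibitors up-regulated in Th17 against Naive, *Socs3* and *Socs2*, were both lost without Naive replicate 1 or Th17 replicate 1. *Usp18*, which is also an interferon response gene, fell by 2.91 on the log2 scale in Th17 against Naive and was 3.78 higher in Th1 than in Th17. That fall was lost without Naive replicate 1 or either Th17 library. The 2 inhibitors up-regulated in Th1 against Th17, *Usp18* and *Socs1*, numbered 0 without either Th17 library and 1 without Th1 replicate 2.

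Genes associated with single members were listed by their textbook links, with earlier results of these data known. Over all tested genes, 4.01% were called higher and 1.43% lower in Th17 against Naive, and 4.64% and 2.81% in Th1 against Naive. In Th1 against Th17 2.70% were called higher and 2.83% lower. Of 10 genes associated with Stat4, 9 were up-regulated in Th1 against Naive, among them *Il12rb2* and *Gzmb* (log2 fold change 6.34), and 8 in Th1 against Th17, led by *Tbx21* (5.31), *Il12rb2* (5.11) and *Cxcr3* (3.64). The count of 8 was 4 without either Th17 library. In Th17 against Naive 5 of the 10 were also up-regulated, among them *Ifng* at 64.6 and 48.7 CPM against 4.55 and 4.56 CPM in Naive, and 2 were down-regulated (1 without Th17 replicate 2). Of 12 genes associated with Stat3 and Th17 cells, 8 were up-regulated in Th17 against Naive, among them *Il21* (4.59) and *Socs3*. In Th1 against Naive 5 of the 12 were up-regulated (2 without Naive replicate 1 and 3 without Th1 replicate 2), led by *Pim1* (3.10), *Il21* (2.95) and *Bcl3* (2.34), the last of which lost its call without either of these libraries. In Th1 against Th17 5 of the 12 were down-regulated (3 without Th17 replicate 1), among them *Il21* (-1.64, a call lost without any 1 of those 4 libraries).

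Of 10 genes associated with Stat5, 4 were up-regulated in Th1 against Naive, led by *Il2ra*, *Socs2* and *Pim1*, and 1 was down-regulated (0 without Naive replicate 2 or Th1 replicate 1). In Th17 against Naive 2 were up-regulated, *Il2ra* and *Socs2* (1 without either replicate 1). Relative to Th17, 2 were up-regulated in Th1, *Osm* (1.98) and *Ccnd2* (1.53), a count that was 0 without either Th17 library or Th1 replicate 2 and 1 without Th1 replicate 1. Of 8 genes associated with Stat6, *Socs1* and *Ccr4* (1.90) were up-regulated in Th1 against Naive, 1 of them without Naive replicate 1. *Gata3*, the transcription factor of Th2 cells, was at 57.5 and 82.4 CPM in Naive, 18.4 and 8.54 CPM in Th17, and 117 and 241 CPM in Th1. It fell by 2.36 on the log2 scale in Th17 against Naive, a call lost without any 1 of those 4 libraries, and was 3.71 higher in Th1 than in Th17. The 1 gene of the list called higher in Th17 than in Naive was *Il13*, a type 2 cytokine, at 0.279 and 0.0990 CPM in Naive, 23.1 and 20.7 CPM in Th17, and 1.08 and 0.885 CPM in Th1 (log2 fold change 6.64, SE 0.54), and that count stayed at 1 without any 1 library. The list median in Th1 against Naive was 1.63, and 1.14 with *Il5*, which was at or under 3 counts in both Naive libraries, set at its bound. *Il4* was 2.71 lower in Th1 than in Th17 on the log2 scale, a call that was lost without any 1 of those 4 libraries, at levels of 4.24 CPM or less in every library. The summed mast cell and basophil markers were likewise highest in both Th17 libraries, although *Kit* and *Gata2* had higher means in Naive. The part of such cells in the levels of *Il4* and *Il13* was not tested.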

How the data were processed

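Raw read counts per gene were deposited, 1 file per library. According to the submitters' processing notes and the study's methods, the authors mapped paired reads to mm10 (GRCm38) with HISAT2 2.2.1 and produced these counts with HTSeq 0.13.5. The methods describe removal of duplicates and default counting, whereas the study's supplementary code shows no such removal and counts the reverse strand, so whether reads from overlapping genes on opposite strands were told apart is unclear. The annotation used for counting is not given in the sources used here.

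Counts were analysed as deposited with edgeR 4.0.16 in R 4.3.3 (filterByExpr, TMM scaling, quasi-likelihood F-test) in 1 model that held the 6 libraries and no covariate beside cell type, and p-values were adjusted by Benjamini-Hochberg over 13607 genes. The study's methods name DESeq2; version 1.42.0 was run as an alternative. CPM are TMM-scaled, log2 CPM used a prior count of 2, and SE was taken as the log2 fold change divided by the root of F. Log2 fold changes and adjusted p-values of all genes named come from this fit. Counts were simulated for Th1 against Naive over 13607 genes. There edgeR called 87 of 100 genes changed by 3 on the log2 scale and 20 of 100 changed by 1.5, and DESeq2 called 93 and 43. Of 13407 genes simulated without a change, edgeR called 2 and DESeq2 15. In the data, 29.9% of genes had an unadjusted edgeR p under 0.05 in that comparison, so these numbers may not carry over. With 2 libraries a group an exact permutation test cannot go below p = 0.333 and was not used. The replicates are named as biological by the study, with no statement on separate cultures, so p-values measure the spread between these libraries.

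Exon lengths came from protein-coding transcripts of GENCODE vM21 (basic set). The members, lists and tests were chosen with earlier results of these data known. All members were named, with the JAKs, the 3 nearest profiles, overlapping genes and the most abundant marker of another cell type. Up to 3 called genes of largest change per list that had more than 3 counts in every library were also named. Named after their values were seen were *Il23r*, *Irf9*, *Ifng*, *Ifi44*, *Il5*, *Il13*, *Il6ra*, *Klf2*, *Satb1*, *Mcpt8*, *Kit*, *Gata2* and *Mpo*. Alternatives were DESeq2, RLE and unscaled libraries, other filters, the replicate number as a term, 4 libraries only, thinning, other thresholds and leaving out each library, and their use on pathway genes was added after seeing the data. A further family member and some list genes are not reported here.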

Additional observations from a re-analysis of the deposited data

How the results depend on the processing

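*Stat4* in Th1 against Naive was positive in every alternative run (log2 fold change 1.07 to 1.58), but the number of members called there fell from 1 to 0 with library size alone, with at least 10 counts in every library, with only the 4 libraries compared and with thinned counts, and was 0 without each of the 4 libraries in turn. In Th17 against Naive 0 members were called in every alternative. In Th1 against Th17 the number was 1 with DESeq2 and at an adjusted p under 0.05 (*Stat4*), 2 without a filter on low counts (*Stat2* and *Stat4*), and 0 to 1 when a library was left out. Signs turned for members with changes near 0: in Th1 against Naive the log2 fold changes of *Stat5b* and *Stat6* were -0.16 and -0.23 with library size alone, and that of *Stat6* was -0.00703 with at least 10 counts in every library. Leaving out a library gave -0.035 to 0.22 for *Stat5b* and -0.20 to 0.29 for *Stat6*. *Stat2*, whose change of 0.91 was not near 0, ranged from -0.11 to 1.51, and its sign turned only without Th1 replicate 1. The cause was not tested. Of 36 recomputed group levels of the members, 20 moved by more than 1 SD: 3 with CPM of the raw total (*Stat3* and *Stat5b* in Th1 and *Stat4* in Th17) and the remainder with coding length in place of exon length. The coding length of every member is shorter than its exon length, so these remaining levels could only rise.

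Among the JAKs, the log2 fold change of *Jak2* was -0.037 in Th1 against Naive and -0.15 in Th1 against Th17 with library size alone, and -0.015 in the latter with at least 10 counts in every library. Leaving out a library gave -0.064 to 0.39 for *Jak2* in Th17 against Naive, -0.10 to 0.23 for *Jak2* and -0.021 to 0.80 for *Jak3* in Th1 against Th17, and -0.44 to 0.17 for *Jak1* and -0.51 to 0.00495 for *Tyk2* in Th1 against Naive. Of 85 pathway genes, 26 were called in Th17 against Naive, 44 with DESeq2, 49 without a filter, 15 with at least 10 counts, 41 with the replicate block in DESeq2, 45 at an adjusted p under 0.05 and 14 to 24 without a library. The 27 in Th1 against Naive became 41 without a filter and 17 to 28 without a library, and the 31 in Th1 against Th17 became 13 to 28 without a library.

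The counts of all genes called, 739, 1014 and 752 in Th17 against Naive, Th1 against Naive and Th1 against Th17, were 1720, 1913 and 1800 with DESeq2, 2154, 2259 and 2232 without a filter and 343, 674 and 411 with at least 10 counts. Library size alone moved the median of all genes by -0.25 and -0.21 in the comparisons of Th1 with Naive and with Th17, and the share of called genes that were higher in Th1 than in Th17 from 48.8% to 36.5%. No source used here states what libraries with an equal replicate number share, and replicate 1 was the deeper library in every cell type. Deviations of replicate 1 correlated across genes at -0.23 (Naive and Th17), 0.17 (Naive and Th1) and 0.08 (Th17 and Th1). With the replicate block, edgeR called 1035, 1402 and 1041 genes, and the number of members called was 0, 1 and 0 in edgeR and likewise in DESeq2, where the call of *Stat4* in Th1 against Th17 was lost. Replicate 2 of each cell type was the shallower library, but no member was near the limit of 3 counts.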
